A study of Homo sapiens with 6 samples.

Results

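The BCL2 family was examined in HCCC9810 cells, an established human cholangiocarcinoma (CCA) line of wild type genotype, after 24 h with 20 μM isolinderalactone (ILL, a plant-derived compound) or with its vehicle, DMSO. The members were 10 genes picked by symbol from the 19470 genes of the count table: the anti-apoptotic BCL2, BCL2L1 and MCL1, the effectors BAX and BAK1, and the BH3-only genes BBC3, PMAIP1, BCL2L11, BID and BIK. RNA-seq gave 3 control and 3 ILL-treated libraries with 34282764 to 37758569 counted reads each. All 6 libraries came from this 1 cell line, and neither the labels nor the methods say whether the 3 of a group came from separate cultures, so p-values measure the spread between libraries, which may be technical.

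Proteins of this family decide whether the mitochondrial outer membrane stays closed. BAX and BAK form the pores that let cytochrome c out, BCL-2, BCL-xL (from BCL2L1) and MCL-1 hold them in check, and BH3-only proteins such as PUMA (BBC3), NOXA (PMAIP1), BIM (BCL2L11), BID and BIK are made or activated under stress and bind the guardians or the effectors. The contact is made by a short helix, the BH3 domain. MCL-1 and BCL-xL are known as survival proteins of biliary cancers.

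The BH3 domain is the sequence feature that the members share, and its core is shown for that reason. The core was located by a search of the coding frame in GENCODE release 29 on GRCh38. The search used 1 coding transcript of each gene (APPRIS principal where tagged, else the longest) and found 1 match in each of the 10 members. At its restricted positions the pattern allowed exactly the residues that occur in these 10 cores. A match in each member was therefore built in and is not a result. The 24 bases of coding strand are given 5′ to 3′, with the codons of the conserved leucine and aspartate in capitals.
BCL2: CTCcgccaggccggcGACgacttc
BCL2L1: CTGagggaggcaggcGACgagttt
MCL1: TTAcgacgggttgggGATggcgtg
BAX: CTCaagcgcatcgggGACgaactg
BAK1: CTCgccatcatcgggGACgacatc
BBC3: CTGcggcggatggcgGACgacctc
PMAIP1: CTCaggagatttggaGACaaactg
BCL2L11: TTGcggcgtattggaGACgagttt
BID: CTCgcccaggtcgggGACagcatg
BIK: CTGgcctgcatcgggGACgagatg
BAK1 and BIK had the most similar cores, with 19 of 24 bases identical, and BCL2L11 and BID the least, with 9 of 24. The aspartate codon was GAC in all members but MCL1. The BBC3 core lies at chr19:47226585-47226608 on the minus strand, the BIK core at chr22:43127716-43127739 on the plus strand and the BCL2 core at chr18:63318355-63318378 on the minus strand, each in coding sequence within 1 exon. Of the coding transcripts, 11 of 24 held the core in BCL2L11, 5 of 11 in BID and 5 of 9 in BAX. In BBC3 it was 3 of 4, in BCL2L1 8 of 9, and in the other members all. Gene counts do not separate transcripts with the core from those without.

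After ILL, 4 of the 5 BH3-only members rose, led by BBC3 at 8.51-fold and BIK at 2.57-fold, while BCL2 fell to 0.247-fold. PMAIP1 and BCL2L11 rose by just under 2-fold, BAK1, MCL1 and BCL2L1 by less, and BAX fell. BID did not pass the test. At an adjusted p under 0.05 from edgeR's quasi-likelihood test, 7 members were higher and 2 lower with ILL, and this threshold was passed by 73.1% of the 13066 genes tested, 36.2% higher and 36.9% lower. DEGs, for which a fold change above 2 or under 0.5 was also required, made up 23.9% of tested genes, 12.5% higher and 11.4% lower, and among the members BBC3 and BIK were DEGs higher with ILL and BCL2 was a DEG lower with ILL. All 10 members passed the filter on low counts, and in all 10 the 3 ILL libraries lay apart from the 3 controls in CPM (counts scaled to library size by TMM), as they did for 75.4% of tested genes (by a hair for BID). Their median log2 fold change was 0.44, beside -0.0012 over all tested genes. In bulk RNA, a lower level per cell and fewer cells with the transcript cannot be told apart.

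Marker genes were read to describe the libraries, and no other cell line was compared. All 7 biliary epithelial markers, among them KRT7, KRT19 and EPCAM, were present, with a summed level of 5079 to 5203 FPKM in controls and 4585 to 4835 FPKM with ILL. The sum hides changes in both directions. At an adjusted p under 0.05, 3 were higher and 4 lower with ILL, beside 36.2% and 36.9% of all tested genes. CDH1 was a DEG with a log2 fold change of 2.07, and KRT18 was at -0.82. FPKM divides a gene's count by its length and by the library total. The 12 markers of hepatocytes, fibroblasts, leukocytes and endothelium summed to 33.0 to 38.2 FPKM in controls and 75.5 to 81.3 FPKM with ILL. Most of this difference was in CD68, a macrophage marker that also marks lysosomes, at 21.7 to 24.4 FPKM in controls and 63.8 to 66.6 FPKM with ILL. The other 11 markers summed to 11.3 to 13.8 FPKM in controls and 11.6 to 17.5 FPKM with ILL. Of the 12 markers, 8 were tested. At an adjusted p under 0.05, 4 were higher with ILL and 0 lower, beside 36.2% and 36.9% of all tested genes. Under 1 FPKM were 7 of the 12 in controls and 8 with ILL. The T cell marker CD3E had 0 counts in all control libraries and the fibroblast marker DCN 0 in all ILL libraries. The part of other cell types in the results below was not tested.

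**Figure D1:**
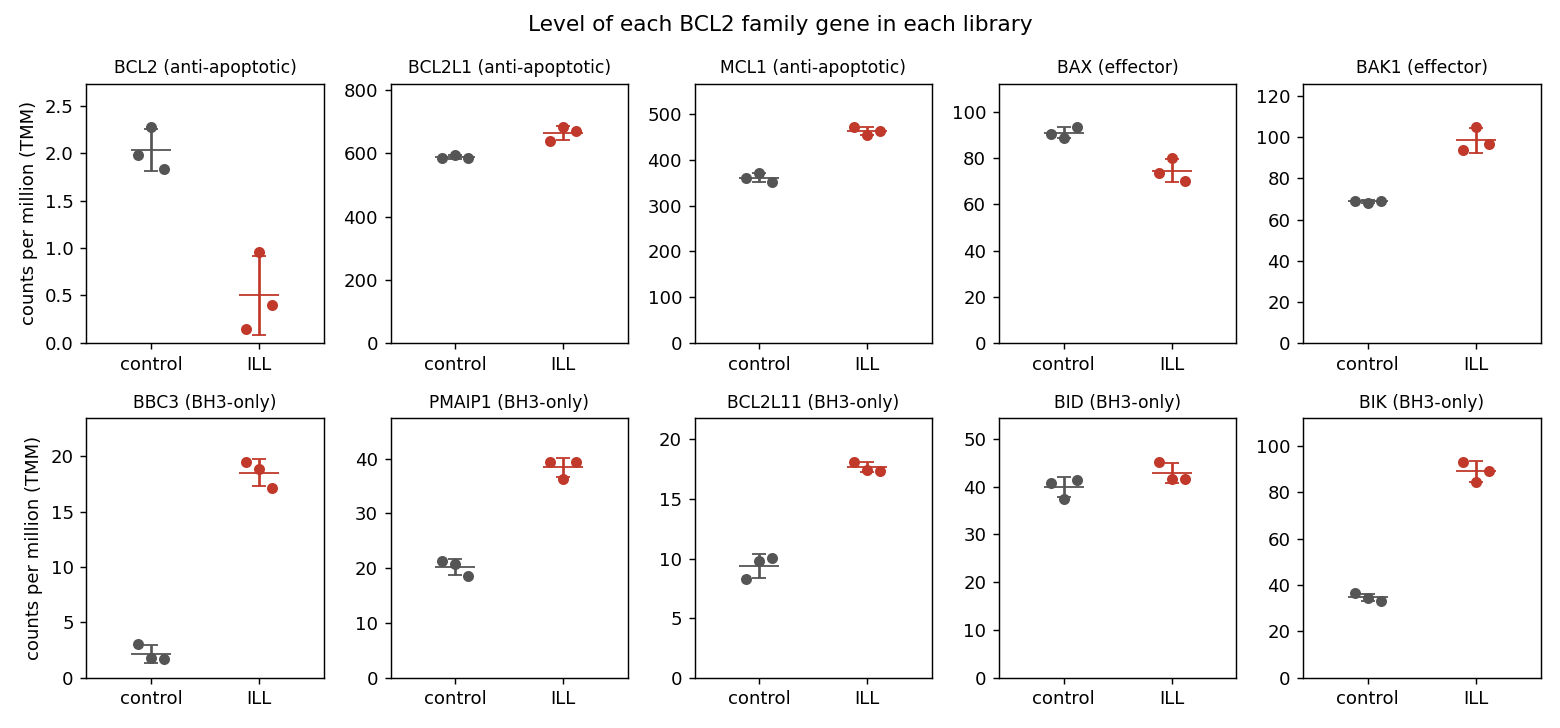
TMM-scaled counts relative to library size (CPM, y axis from 0 and scaled per gene) of the 10 BCL2 family genes in 3 control (grey) and 3 ILL-treated (red) libraries; horizontal marks are means and bars SD. BBC3, PMAIP1, BCL2L11 and BIK lie higher in all ILL libraries, BCL2 and BAX lie lower, and the ILL libraries of BCL2 spread from 0.143 to 0.959 CPM.

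Among the anti-apoptotic genes, BCL2 was nearly silent in these cells and BCL2L1 was abundant. BCL2 (chromosome 18 of GRCh38, 63123346 to 63320128, minus strand) had 77, 80 and 65 counts in control libraries 1 to 3 and 5, 33 and 14 counts in ILL libraries 1 to 3. The highest ILL library therefore lay below the lowest control, but the ILL libraries differed more among themselves than the controls did. In CPM, BCL2 went from 2.03 ± 0.224 (SD, n = 3) to 0.501 ± 0.417 (SD, n = 3). The log2 fold change was -2.02 (standard error, SE, 0.46, 95% interval -2.97 to -1.06, edgeR adjusted p = 0.00042). Its size rested on single ILL libraries, at -1.58 without ILL replicate 1 and -2.89 without ILL replicate 2.

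BCL2L1 encodes BCL-xL and, by alternative splicing, the pro-apoptotic BCL-xS, which gene counts do not separate. It is on chromosome 20 (31664452 to 31723989, minus strand) and was at 586, 595 and 585 CPM in control libraries and 640, 684 and 670 CPM in ILL libraries. The groups did not overlap and the difference was small, with a log2 fold change of 0.18 (SE 0.05, edgeR adjusted p = 0.0019). Scaled by library size alone, the value was 0.11 (edgeR adjusted p = 0.0422).

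MCL1, whose protein is short-lived and kept up by steady synthesis, lies on chromosome 1 (150574551 to 150579738, minus strand). Control libraries held 360, 372 and 352 CPM and ILL libraries 472, 455 and 462 CPM. Every ILL library exceeded every control, by a fold change of 1.28 (95% interval 1.2 to 1.37, edgeR adjusted p = 3.5e-07).

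The effectors moved in opposite directions. BAX, which waits in the cytosol and inserts into the outer membrane when activated, lies on chromosome 19 (48954815 to 48961798, plus strand). Its level was 90.5, 88.9 and 93.5 CPM in controls and 73.7, 80.1 and 70.1 CPM with ILL, so that all ILL libraries were lower. The log2 fold change of BAX was -0.29 (SE 0.06, edgeR adjusted p = 0.00017). BAK1, which encodes the membrane-resident effector BAK, lies on chromosome 6 (33572547 to 33580293, minus strand). It rose from 68.9, 68.2 and 69.3 CPM to 93.8, 105 and 96.5 CPM. This is a log2 fold change of 0.52 (SE 0.06, edgeR adjusted p = 2.6e-08). The ratio of BAK1 to BAX in FPKM was 0.298, 0.301 and 0.290 in controls and 0.499, 0.515 and 0.540 with ILL. BAX remained the more abundant of the pair in every library. Reads of BAK1 can be shared with its processed pseudogenes BAK1P1 and BAK1P2, which had no row in the count table.

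BBC3 showed the largest change of the 10 members. Its product PUMA binds all anti-apoptotic members. The gene lies on chromosome 19 (47220822 to 47232766, minus strand) and had 119, 62 and 58 counts in control libraries and 683, 650 and 600 counts in ILL libraries. The lowest ILL library was thus far above the highest control, and control replicate 1 was the highest of the controls. From 2.16 ± 0.789 CPM (SD, n = 3) the level rose to 18.5 ± 1.22 CPM (SD, n = 3), a log2 fold change of 3.09 (SE 0.17, edgeR adjusted p = 3.5e-14). By absolute log2 fold change, BBC3 stood at percentile 98.2 of all tested genes, and BCL2 at percentile 92.9.

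BIK, the founding BH3-only protein and a resident of the endoplasmic reticulum, is encoded on chromosome 22 (43110748 to 43129712, plus strand). It was at 36.4, 34.5 and 33.1 CPM in controls and 93.3, 84.4 and 89.4 CPM with ILL. The spread within each group was small beside the difference, with a log2 fold change of 1.36 (SE 0.07, edgeR adjusted p = 1.8e-15).

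PMAIP1 and BCL2L11 rose by nearly the same factor, just under the fold change cutoff. NOXA, the product of PMAIP1, binds MCL-1 in preference to BCL-xL and BCL-2. PMAIP1 (chromosome 18, 59899948 to 59904306, plus strand) went from 21.4, 20.8 and 18.6 CPM to 39.5, 36.4 and 39.4 CPM. Its log2 fold change was 0.92 (95% interval 0.76 to 1.09, edgeR adjusted p = 1.6e-10). BIM, the product of BCL2L11, binds every anti-apoptotic member and can also activate BAX. BCL2L11 (chromosome 2, 111119378 to 111168447, plus strand) went from 8.27, 9.82 and 10.04 CPM to 18.1, 17.4 and 17.4 CPM. The log2 fold change was 0.91 (95% interval 0.69 to 1.14, edgeR adjusted p = 6.8e-08). For both genes, every ILL library exceeded every control, and the interval included the cutoff of 2-fold.

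BID, which links death receptors to mitochondria once caspase-8 has cut it, was the member for which no change was detected. Its gene lies on chromosome 22 (17734138 to 17774770, minus strand), and its level was 40.9, 37.5 and 41.45 CPM in controls and 45.3, 41.7 and 41.55 CPM with ILL. The lowest ILL library lay barely above the highest control in CPM, and the groups overlapped in FPKM, at 14.4 to 15.9 in controls and 15.2 to 16.7 with ILL. The fitted log2 difference was 0.10 (95% interval -0.04 to 0.24, edgeR adjusted p = 0.20), and a change of more than 1.18-fold upward or below 0.97-fold lay outside the interval.

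**Figure D2:**
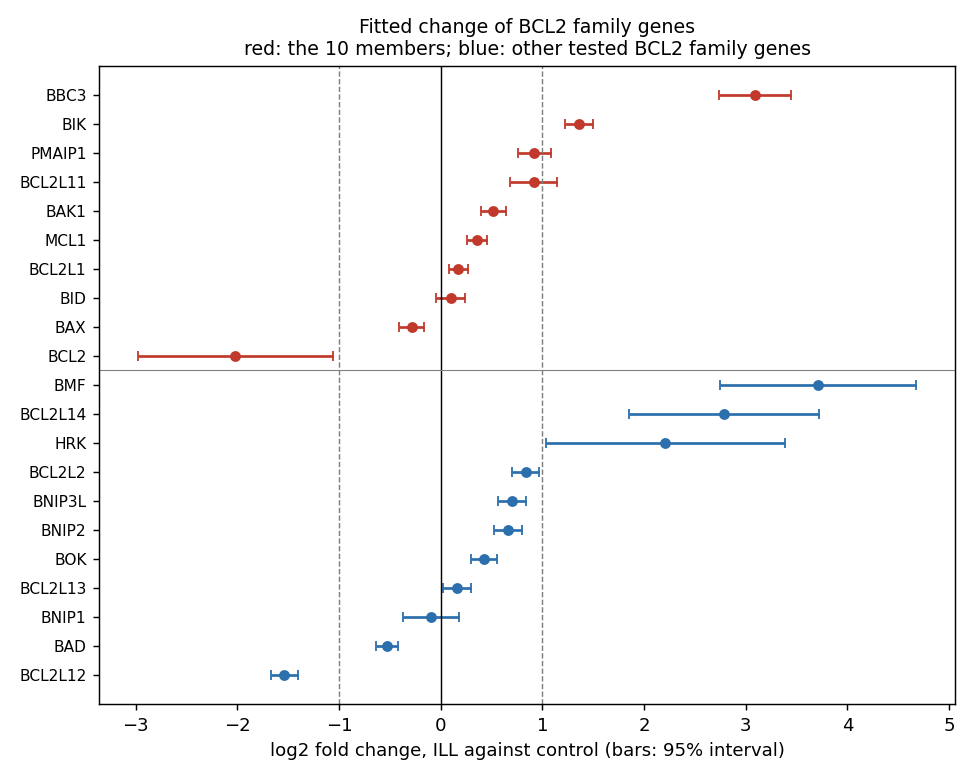
Fitted log2 fold change of ILL against control with 95% interval for the 10 members (red) and for the 11 other BCL2 family genes that were tested (blue); the solid line is 0 and dashed lines mark 2-fold up and down. BBC3 (3.09), BIK (1.36), BMF (3.71), BCL2L14 (2.79) and HRK (2.21) are beyond the upper line, and BCL2 (-2.02) and BCL2L12 (-1.54) beyond the lower one.

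Levels were compared between genes per length, in FPKM. In controls the order from high to low was BCL2L1, BAX, MCL1, BIK, BAK1, BID, PMAIP1, BCL2L11, BBC3 and BCL2. The mean FPKM was 205 for BCL2L1, 104 for BAX, 93.7 for MCL1 and 0.205 for BCL2, and BCL2L1 exceeded BCL2 by 903 to 1101 times in the control libraries. Only the neighbours BCL2L11 (1.25 FPKM) and BBC3 (0.930 FPKM) overlapped between libraries. With ILL the order was BCL2L1, MCL1, BIK, BAX, BAK1, PMAIP1, BID, BBC3, BCL2L11 and BCL2, and BIK (86.1 to 96.4 FPKM) and BAX (76.6 to 86.9 FPKM) were the only neighbours to overlap. MCL1 thus passed BAX, PMAIP1 passed BID and BBC3 passed BCL2L11, while BCL2L1 stayed first and BCL2 last.

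**Figure D3:**
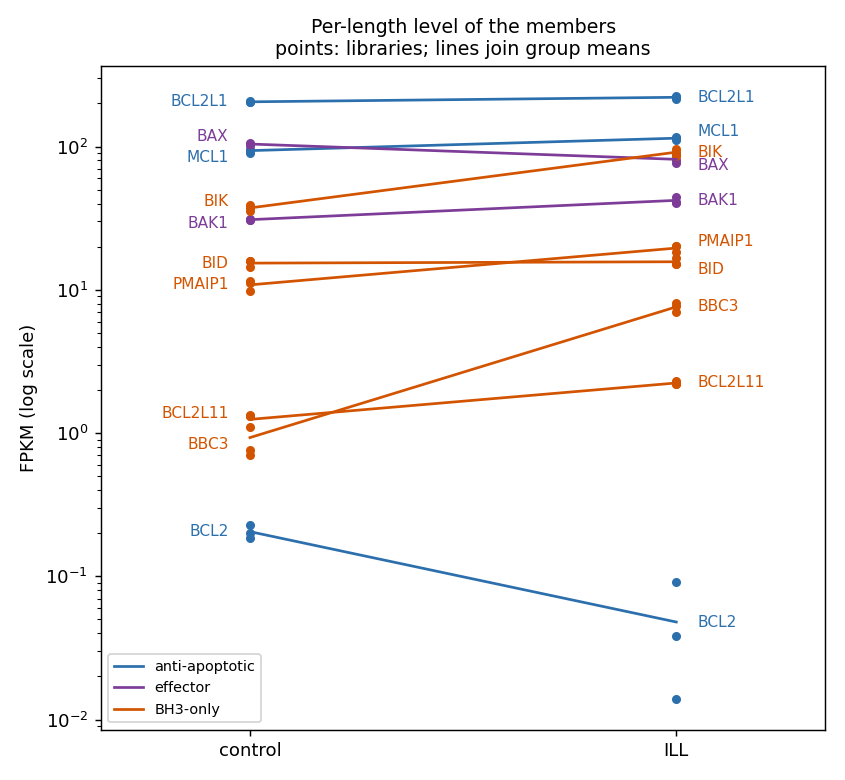
Level of the 10 members in FPKM (log axis) in control and ILL libraries; points are libraries, lines join group means and colours give the role. BCL2L1 is highest at 205 FPKM in controls and 221 FPKM with ILL, BCL2 is lowest at 0.205 and 0.0480 FPKM, and the line of BBC3 crosses that of BCL2L11.

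Summed over the 5 BH3-only members, the level was 69.0, 64.8 and 63.2 FPKM in controls and 144, 130 and 136 FPKM with ILL. BIK made up 56.8% ± 0.657 (SD, n = 3) of this sum in controls and 66.9% ± 0.450 (SD, n = 3) with ILL. BBC3 went from 1.40% ± 0.450 to 5.58% ± 0.391, and BID from 23.4% ± 1.49 to 11.5% ± 0.289 (SD, n = 3 each). Within these 5 genes, BIK and not BBC3 therefore contributed most to the added transcript, although BBC3 had the larger fold change. The sum leaves out BH3-only genes that are not members. Among those, BAD fell from a mean of 231 FPKM in controls to 152 FPKM with ILL. BMF and HRK rose but stayed under 1 FPKM. The rise of the sum therefore does not describe all BH3-only transcript.

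**Figure D4:**
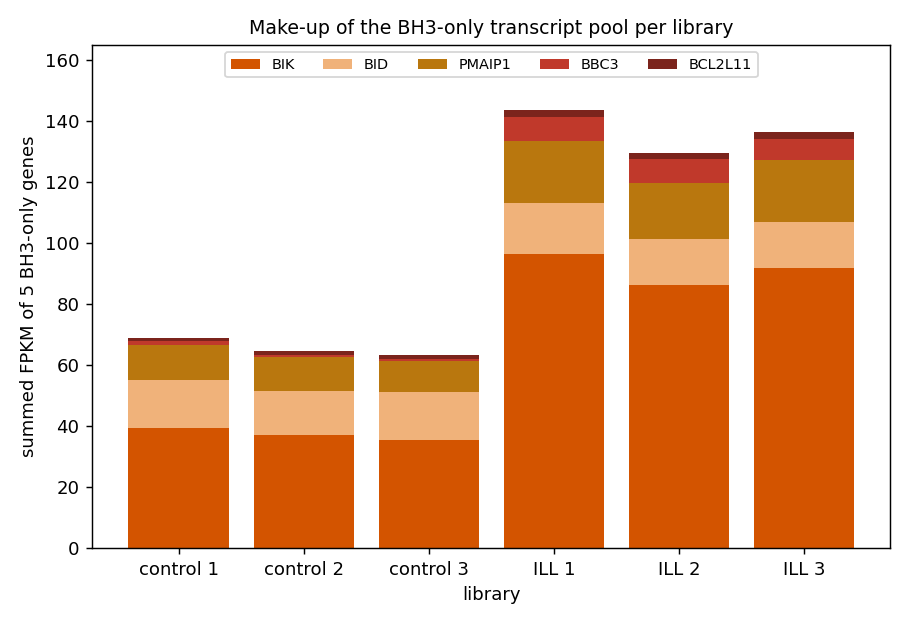
Summed FPKM of the 5 BH3-only members in each of the 6 libraries, stacked by gene, with the y axis from 0. BAD is not included. Control bars reach 63.2 to 69.0 FPKM and ILL bars 130 to 144 FPKM, and BIK is the tallest segment in all 6.

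The 3 anti-apoptotic genes summed to 299, 304 and 294 FPKM in controls and 331, 338 and 337 FPKM with ILL. BCL2 contributed 0.0685% of this sum in controls and 0.0142% with ILL, so the fall of BCL2 hardly entered it. The 2 effectors summed to 135, 133 and 138 FPKM in controls and 121, 132 and 118 FPKM with ILL. The ratio of the BH3-only sum to the anti-apoptotic sum was 0.231, 0.213 and 0.215 in controls and 0.433, 0.384 and 0.405 with ILL. It describes the members only and leaves out BAD, whose fall is given above. Also left out is the anti-apoptotic BCL2L2, with a mean of 14.4 FPKM in controls and 24.5 FPKM with ILL. A ratio over the whole family was not computed. The ratio of BAX to BCL2, often quoted for this family, was 518, 443 and 578 in controls and 5854, 948 and 1988 with ILL. It was higher in all ILL libraries while BAX itself was lower, and its spread was that of the BCL2 counts. Against BCL2L1, BAX was at 0.508, 0.491 and 0.525 in controls and 0.378, 0.385 and 0.344 with ILL, the opposite direction. PMAIP1 relative to MCL1 went from 0.122, 0.115 and 0.109 to 0.172, 0.165 and 0.176. No test was run on sums or ratios.

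Beyond the members, BH3-only genes of the family moved in both directions. Of 16 other family genes, 11 were tested, of which 8 were higher and 2 lower at an adjusted p under 0.05, beside the 36.2% and 36.9% of all tested genes given above. The median of the 11 was 0.66. BMF, a BH3-only gene whose protein is held at the cytoskeleton until cells lose attachment, had 7, 2 and 15 counts in controls and 117, 110 and 78 with ILL. Its log2 fold change was 3.71 (SE 0.47, edgeR adjusted p = 1.3e-07), or 4.55 without control replicate 3. HRK, another BH3-only gene, was singled out after its values were seen, at 5, 18 and 3 counts in controls and 40, 47 and 30 with ILL, a log2 fold change of 2.21 (edgeR adjusted p = 0.0013), or 3.34 without control replicate 2. BAD, a BH3-only gene whose protein is held inactive by survival kinases, went the other way, from 210 ± 3.17 to 145 ± 4.77 CPM (SD, n = 3 each).

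The anti-apoptotic BCL2L2, which encodes BCL-w, rose from 49.5 ± 3.77 to 88.5 ± 2.94 CPM (SD, n = 3 each), the largest rise among the anti-apoptotic genes tested. BOK, an effector-like gene also singled out after its values were seen, had a log2 fold change of 0.43 (SE 0.06, edgeR adjusted p = 1.5e-06). BNIP3L, a mitophagy receptor, rose by a log2 fold change of 0.70. BCL2L14 (BCL-G) had 6, 8 and 22 counts in controls and 68, 79 and 94 with ILL, a log2 fold change of 2.79, or 3.58 without control replicate 3. BCL2L12, a divergent relative, fell from 92.8 ± 1.83 to 31.9 ± 1.80 CPM (SD, n = 3 each), a log2 fold change of -1.54. BCL2A1, BCL2L10, BCL2L15, BNIP3 and BNIPL did not pass the count filter, with at most 14 counts in any library.

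Genes for the steps after the outer membrane opens were counted next. Of 10 tested genes for membrane channels, released proteins and the apoptosome, 7 were lower and 2 higher at an adjusted p under 0.05, beside 36.9% and 36.2% of all tested genes. CYCS, which encodes cytochrome c, was at 492 ± 44.5 CPM (SD, n = 3) in controls and 243 ± 22.1 CPM (SD, n = 3) with ILL, a log2 fold change of -1.02, and its reads can be shared with its many processed pseudogenes. VDAC1 and VDAC3, outer membrane channels, fell by 0.61 and 0.59 on the log2 scale, whereas VDAC2, the channel that holds BAK, rose by 0.41. CASP9, the caspase that the apoptosome activates, rose from 8.67 ± 0.596 to 18.3 ± 0.206 CPM (SD, n = 3 each). AIFM1, a mitochondrial flavoprotein, had a log2 fold change of -0.28 (edgeR adjusted p = 0.015) and no longer passed without ILL replicate 1, at -0.16.

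Of 9 transcription factor genes known to act on promoters of the family, 6 were higher and 3 lower at an adjusted p under 0.05, beside 36.2% and 36.9% of all tested genes. The stress factors ATF3, DDIT3 (CHOP) and ATF4 had log2 fold changes of 3.42, 2.62 and 1.74, and FOXO3, which acts on BCL2L11 and BBC3, had 0.98. TP73 was at -2.19 and the cell cycle factors E2F1 and MYC at -2.15 and -0.56, all passing the edgeR test. Of 6 tested genes for turnover of the MCL-1 and BIM proteins, 2 were higher and 2 lower, where 73.1% of all tested genes passed. USP13, a deubiquitinase that stabilizes MCL-1, had a log2 fold change of -1.27 and FBXW7, a ligase subunit for MCL-1, one of -0.42. MARCHF5, a mitochondrial ligase, rose by 0.35. USP9X, another MCL-1 deubiquitinase, had 0.14 (edgeR adjusted p = 0.035), and did not pass without control replicate 1 (0.10), control replicate 2 (0.12) or ILL replicate 1 (0.11). Activity of these factors and enzymes was not measured here.

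Promoters were read from RefSeq on GRCh38.p14, as 300 bases from 250 before to 50 after a start. RefSeq windows were matched for 8 of the 10 members, 13 windows in all, and MCL1 and BIK were not matched. Both strands were searched for 5 motifs: the E-box CACGTG, the CRE core TGACGT, the composite C/EBP-ATF element TGATGNAA, the GC box GGGCGG and the κB motif. The BAX window held 4 E-boxes, a number reached by 5 of 35116 windows, and 7.26% of windows held at least 1. Of the member windows, 4 held an E-box: that of BAX, that of BBC3 with 1, and 2 of the 5 BID windows with 1 each, so members that fell, rose and did not pass the test were among them. The BAX sites are shown for their number, with the E-box in capitals and 7 bases on each side.
BAX site 1: ggacagtCACGTGacgggac
BAX site 2: gtgcggtCACGTGacccggc
BAX site 3: gggcggcCACGTGaaggacg
BAX site 4: gggctctCACGTGacccggg
The E-boxes begin 138, 93, 45 and 14 bases before the RefSeq start on the plus strand. The first printed stretch is at chr19:48954730-48954749 and the last at chr19:48954854-48954873. The BAX gene as placed by GENCODE begins earlier, at 48954815, so sites 3 and 4 lie inside it. The third lies just after a GC box. The PMAIP1 window held 1 CRE core, on the reverse strand and in capitals here, a motif found in 7.98% of windows.
PMAIP1 site 1: tttccctACGTCAccaggga
The stretch is chr18:59899933-59899952 and the motif begins 56 bases before the RefSeq start. No member window held the C/EBP-ATF element (3.62% of windows) or the κB motif (11.3% of windows). None of the 5 motifs was found in the BCL2 window, in a window of BCL2L1 or in a window of BID. A match is a run of letters and says nothing of binding in these cells.

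Genes whose profile over the 6 libraries was most like that of BBC3 and BCL2, the members with the largest changes, were sought among 12048 tested genes with at least 1 CPM. For BBC3 they were BMPR2, BCL2L2 and RMND5A, each with Pearson's r of 0.999 on log2 CPM over 6 libraries. BMPR2 was at 98.7 CPM in controls and 144 CPM with ILL. For BCL2 they were SMG9 (r = 0.998), TSFM (r = 0.996) and REXO1 (r = 0.994), whose log2 fold changes of -0.43, -0.41 and -0.22 were much smaller. With 2 groups of 3 libraries, such values mostly follow the group difference, and they are given as a description.

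Exons of BCL2L1, MCL1, BAK1, BBC3 and BCL2L11 overlap other annotated genes in GENCODE release 29 (ABALON, ADAMTSL4-AS1, GGNBP1, the MIR3190 and MIR3191 hairpins, and MIR4435-2HG), none of which had a row in the count table. Whether counting used the strand is not given in the sources used here, so reads of such partners cannot be told apart from reads of the member.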

How the data were processed

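RNA-seq of HCCC9810 cells gave 3 control and 3 ILL libraries, grouped by their titles. The authors deposited 2 tables by gene symbol, unnormalized read counts and FPKM. Each of 88055 nonzero FPKM values equalled, within 0.1%, the count over a fixed length per gene and the library total. The submitters' processing notes name GRCh38 and DESeq2, and aligner, counting program and annotation are not given in the sources used here. Here, counts were filtered with filterByExpr (13066 of 19470 genes kept), scaled by TMM and tested with edgeR's quasi-likelihood test (edgeR 4.0.16, R 4.3.3), with Benjamini-Hochberg adjustment over all tested genes. Standard errors are the log2 fold change divided by the square root of F. CPM are TMM-scaled. Alternatives used DESeq2 1.42.0 and limma 3.58.1. The biological coefficient of variation was 0.0717, so precision is set by replicate spread except in genes with few counts. The fit was run on simulated data with changes placed only in genes with many counts. That run does not cover genes with few counts, such as BCL2. Members, lists and motifs were chosen with earlier results of these data known. Text names all members, up to 4 passing genes at each end of each further list with at least 1 CPM, family genes under the filter, and the 3 genes most like each of the 2 most changed members. Proteins were not analysed here, and 1 gene of the transcription factor list is not reported here.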

Additional observations from a re-analysis of the deposited data

How the results depend on the processing

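Each member kept its direction and its side of the adjusted p threshold of 0.05 in every alternative that tested it, 147 values in all. The count of members called DEGs and lower with ILL went from 1 to 0 when all libraries had to hold 10 counts or more and in the 3 limma fits on FPKM, and the count of members lower at an adjusted p under 0.05 went from 2 to 1 under the first of these and under both limma fits with a mean FPKM of at least 1. In those 3 settings BCL2 was below the filter. In limma on log2(FPKM + 1) without a filter BCL2 was tested, at -0.20 (adjusted p = 0.0016), since a pseudocount of 1 exceeds its FPKM, BCL2L11 was at 0.53, and BBC3, with and without the filter at this pseudocount, was at 2.17. BCL2L1 was between 0.10 and 0.11 with library size only and with limma. Over all genes, limma on log2(FPKM + 1) called 1591 DEGs, 668 higher and 923 lower, and without the filter 1609, 680 higher and 929 lower. With a pseudocount of 0.1 there were 909 higher DEGs. The cause of these differences was not tested. Leaving out 1 library at a time gave log2 fold changes of -2.89 to -1.58 for BCL2, 2.92 to 3.44 for BBC3, and 3083 to 3165 DEGs. Same-numbered libraries did not deviate together (correlations of 0.0012, -0.015 and -0.043), and differently numbered ones ran from -0.039 to 0.050. With 3 libraries per group these values cannot decide whether the samples were paired, which the labels do not say. With the replicate number as a block there were 3111 DEGs against 3120, BCL2 was at -2.20 and USP9X no longer passed (adjusted p = 0.0503). Depth limits BCL2, BMF, BCL2L14 and HRK, which had under 20 counts in some libraries.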
